A study of Mus musculus with 2 samples.

Results

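The H3K56ac intervals at the loci of Klf2, Klf4 and Klf5 were examined in mouse embryonic stem (ES) cells. Members were all intervals of the deposited list that overlapped by 1 bp or more a window set around each gene in mm9 coordinates: chr8:74815000-74870000 for Klf2 (55 kb), chr4:55465000-55560000 for Klf4 (95 kb) and chr14:99670000-99740000 for Klf5 (70 kb). The windows were drawn by position and not by any measured value. The members and comparisons were, however, chosen with earlier results of these data known. The windows held 112 of the 92549 intervals of the list, or 0.121%: 39 at Klf2, 33 at Klf4 and 40 at Klf5. The cells were E14Tg2a, an established mouse ES line grown without drug treatment in serum and leukaemia inhibitory factor (LIF). Sheared, formaldehyde-fixed chromatin was precipitated with an antibody to histone H3 acetylated at lysine K56 and sequenced (ChIP-seq). The labels give 2 libraries, 1 ChIP and 1 input DNA. The interval list of the ChIP library is described; the input was not analysed here. There are therefore no replicates and no tests between samples. The list has only positions, so sequencing depth and signal height are unknown. It cannot show the identity of the cells through marker expression.

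Krüppel-like factors are zinc-finger transcription factors that bind GC-rich and CACCC-type DNA through zinc fingers at their C-terminal end. Klf2, Klf4 and Klf5 are expressed in mouse ES cells, where they overlap in function in keeping the cells self-renewing. Klf4, a target of LIF and Stat3 signalling, is one of the factors used to reprogram somatic cells. Klf2 is known as a target of Oct4 and also acts in endothelium and T cells, and Klf5 is needed in the early embryo, including the trophectoderm. H3K56 sits in the core of the histone, beside the DNA that enters the nucleosome, and in mammals its acetylation is laid down by p300 and CBP, enzymes known for their presence at enhancers.

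The 250 bases before the start of Klf2 and Klf4 are shown because both are gene promoters at loci rich in intervals, and because the start of Klf4 falls at a gap in its intervals described further on. Of the 3 genes, 2 were matched in the RefSeq promoter table of assembly GRCm38.p6 (Klf5 had no entry). Sequences run 5′ to 3′ on the gene's own strand, plus for Klf2 and minus for Klf4, and capitals mark GGGCGG on either strand, the GC box bound by Sp and Klf family proteins.
Klf2: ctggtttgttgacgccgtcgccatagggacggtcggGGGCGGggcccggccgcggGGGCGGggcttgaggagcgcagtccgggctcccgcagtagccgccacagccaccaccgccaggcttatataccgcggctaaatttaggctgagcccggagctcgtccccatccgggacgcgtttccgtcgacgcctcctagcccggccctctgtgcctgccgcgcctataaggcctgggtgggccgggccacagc
Klf4: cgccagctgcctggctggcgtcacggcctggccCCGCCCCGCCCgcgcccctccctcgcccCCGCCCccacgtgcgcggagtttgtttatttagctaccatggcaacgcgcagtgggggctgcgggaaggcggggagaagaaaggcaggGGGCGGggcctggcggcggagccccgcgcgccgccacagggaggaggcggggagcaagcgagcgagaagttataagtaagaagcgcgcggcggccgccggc

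Both promoters were rich in GC. The GC content was 71.2% for Klf2 and 74.0% for Klf4, against a median of 52.4% over the 32851 promoters of the table. CG dinucleotides numbered 29 and 32, against a median of 6. GGGCGG, searched on both strands, occurred 2 times before Klf2 and 4 times before Klf4, with 2 of the 4 Klf4 matches sharing a base. It was present in 32.7% of all promoters of this length. CACCC, on either strand, occurred 1 time before Klf2 and 0 times before Klf4, and was present in 52.0% of promoters. Neither promoter held TATAAA (12.4% of promoters) or ATGCAAAT, the octamer bound by Oct proteins (1.60% of promoters), on either strand. These are matches of letters in a short stretch and not sites of binding. The table is of another build than the interval list, so the sequences were not placed on the intervals by coordinate.

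Klf5 carried the most interval bases of the 3 loci, and Klf2 the most intervals per length of window. Klf4 had the lowest share of its window covered and the fewest intervals per length of window, and Klf2 the fewest covered bases. At Klf5, 40 intervals covered 17350 bp, or 24.8% of the window. The 39 intervals at Klf2 covered 9301 bp of its window, or 16.9%. At Klf4, 33 intervals covered 12450 bp, or 13.1%. Per 10 kb of window, Klf2 had 7.09 intervals (exact Poisson 95% interval 5.04 to 9.69), Klf5 5.71 (4.08 to 7.78) and Klf4 3.47 (2.39 to 4.88). The Poisson limits of Klf2 and Klf4 narrowly did not overlap (lower limit 5.04, upper limit 4.88), whereas those of Klf5 overlapped both. These limits allow for counting error alone and would be too narrow if neighbouring intervals are not independent. The counts also depend on how stretches were split. Merging intervals less than 500 bp apart left 21 at Klf2 and 17 at Klf4, for which no limits are given. The limits are therefore not a test between loci. The windows also differ in extent: that of Klf4 was set to hold both gene and distal enhancers, and 46.5 kb of it was 1 gap without intervals. Its distal and gene stretches alone had 9.50 and 9.43 intervals per 10 kb, so the low Klf4 values hold for the window as a whole. All 3 loci lay above the average of their chromosomes between the first and last interval. Coverage was 0.786% for chromosome 8, 0.856% for chromosome 4 and 0.508% for chromosome 14. The Klf2, Klf4 and Klf5 windows thus had 21.5, 15.3 and 48.8 times the chromosome's covered bases per length, and 16.9, 7.64 and 21.8 times its number of intervals.

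**Figure D1:**
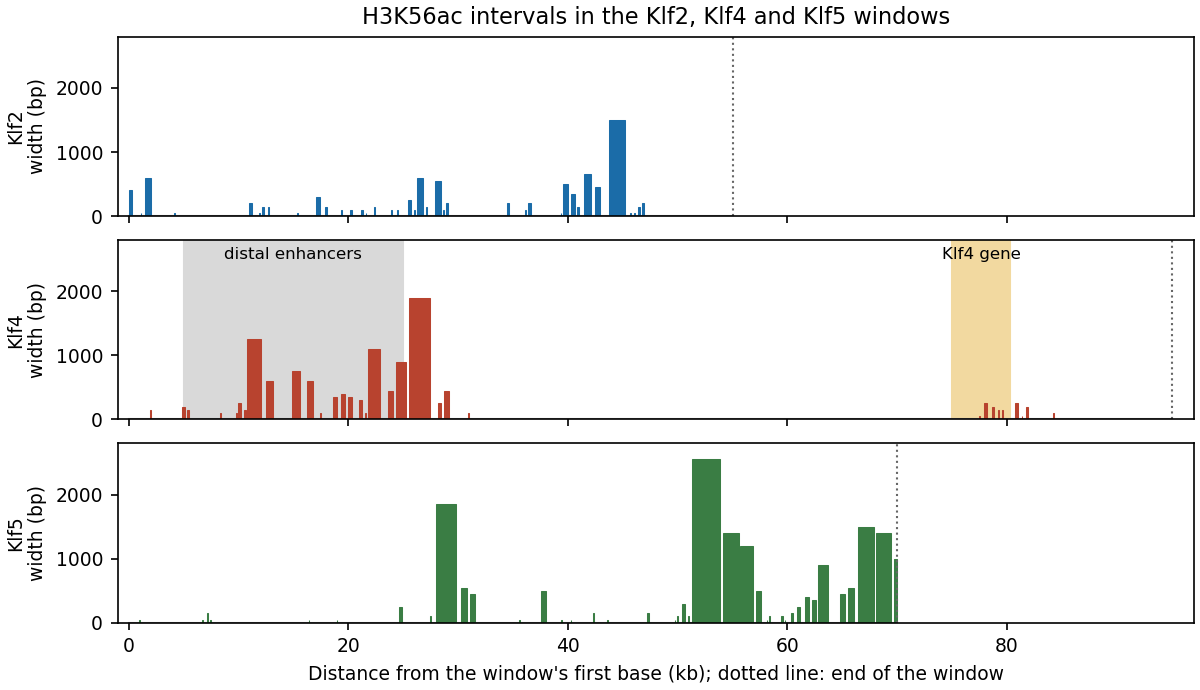
Every H3K56ac interval in the windows of Klf2 (top), Klf4 (middle) and Klf5 (bottom). The x axis is distance from the first base of the window in kb, bars span each interval and their height is its width in bp, the dotted line is the window's end, and shading marks the distal and gene stretches of Klf4. The widest bar of Klf5 (2550 bp) stands in the right part of its window, and its next widest (1850 bp) further left. That of Klf4 (1900 bp) stands next to the distal stretch, and that of Klf2 is 1500 bp. All bars at the Klf4 gene are 250 bp or narrower.

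At Klf4, most interval bases of the window lay far from the gene. The gene was taken as the stretch from 55540000 to 55545300 on chromosome 4, and its distal enhancers as 55470000 to 55490000; both limits are approximate. The distal stretch held 19 intervals that covered 7851 bp, or 39.3% of its 20.0 kb. The gene stretch held 5 intervals that covered 800 bp, or 15.1% of its 5.30 kb. Counted per length, the number of intervals was close in both, 9.50 per 10 kb in the distal stretch and 9.43 in the gene. The difference in coverage therefore came with width: the median width was 350 bp in the distal stretch and 150 bp in the gene.

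The intervals of the Klf4 window fell into a distal and a gene-side group with nothing listed between them. The distal group of 24 intervals ran from 55466901 to 55496000 (29.1 kb) and held 11050 bp of interval sequence, 88.8% of all in the window. It covered 38.0% of its own length, its median width was 325 bp and no interval in it was narrower than 100 bp. It reached past the named distal limit, where 4 further intervals lay wholly beyond 55490000. Together with the end of one that crossed the limit, they added 2950 bp. One of these was the widest interval of the locus, 1900 bp at chr4:55490551-55492450, and only 248 intervals of the whole list were as wide or wider. The next widest were 1250 bp (chr4:55475801-55477050), 1100 bp (chr4:55486801-55487900), 900 bp (chr4:55489351-55490250) and 750 bp (chr4:55479851-55480600). Measured from the upper gene limit, the distal group lay 49.3 to 78.4 kb away.

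The gene-side group of Klf4 was smaller. It had 9 intervals from 55542451 to 55549300, with 1400 bp of interval sequence, so that the distal group held 7.89 times as many bases. The widest were 250 bp, at chr4:55542901-55543150 and chr4:55545701-55545950. Within the gene, all 5 intervals lay past 55542450, and none lay between the lower limit and that position. The RefSeq table of GRCm38.p6 has Klf4 on the minus strand, so the upper limit is the end where transcription starts. A gap of 1050 bp, from 55544651 to 55545700, spanned this limit, with an interval of 150 bp before it (chr4:55544501-55544650) and one of 250 bp after it. The start of the gene as given here was therefore flanked by H3K56ac intervals on both sides but not covered by one. Because the limit is approximate and the calling threshold unknown, absence of a listed interval cannot be read as absence of H3K56ac.

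Between the Klf4 groups, 46.5 kb from 55496001 to 55542450 held no interval. This was the longest gap at the 3 loci; the longest were 8.90 kb at Klf5 and 6.80 kb at Klf2. Among windows of the same size on chromosome 4 with as many intervals or more as Klf4, 3 of 539 (0.557%) had a longest inner gap of this length or more. All 3 overlap the Klf4 window and so hold the same gap, which leaves 0 of the 536 windows elsewhere. The Klf4 window was set to hold both the gene and its distal enhancers, whereas the others were placed without regard to genes. This share therefore describes the locus and does not measure how rare such a gap is. The median longest gap of the 539 windows, many of which overlap one another, was 15700 bp.

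**Figure D2:**
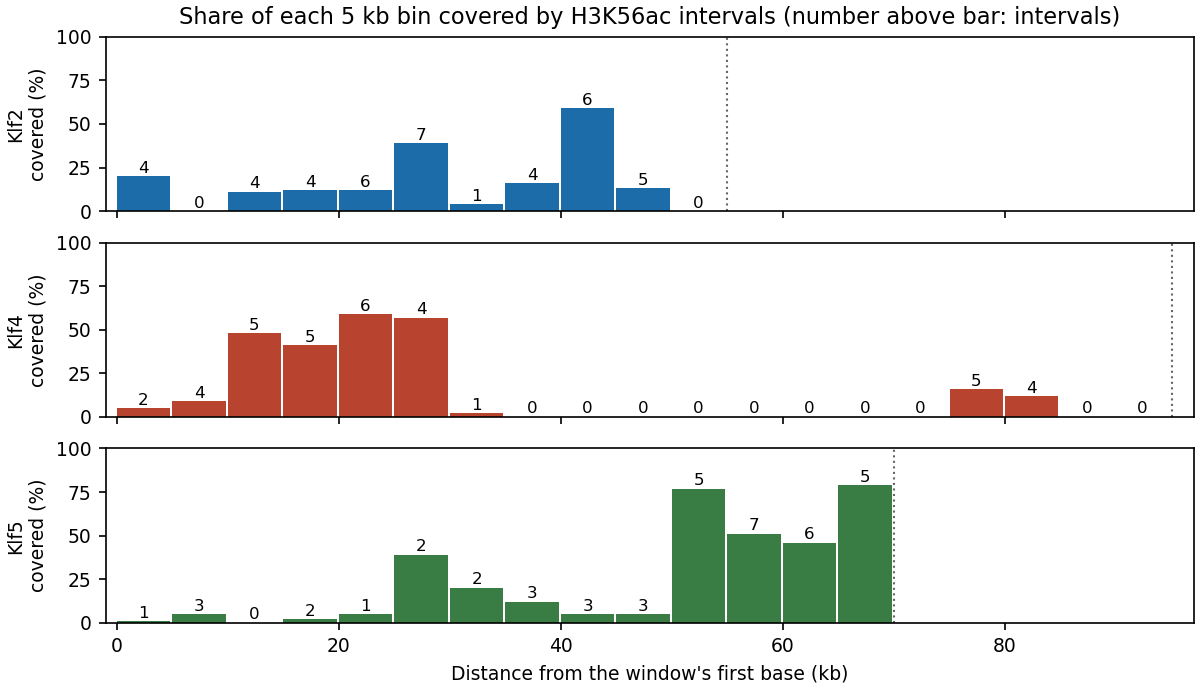
Share of each 5 kb bin covered by H3K56ac intervals (y axis, %) along the Klf2, Klf4 and Klf5 windows (x axis, kb from the first base of the window), with the number of intervals that meet each bin above its bar. At Klf4 the bins between 10 and 30 kb reach 41.0% to 59.0% and the 8 bins from 35 to 75 kb are empty, whereas at Klf5 the last 4 bins reach 46.0% to 79.0%.

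At Klf5, covered bases were concentrated towards the upper end of the window and in a few broad intervals. From 99705001 to 99740000, 29 intervals covered 13750 bp (39.3% of that stretch), which was 79.3% of the window's covered bases. The lower part, from 99670000 to 99705000, had 11 intervals over 3600 bp (10.3%). Of the 40 intervals, 7 (17.5%) were 1000 bp or wider, against 1.56% of the whole list, and they held 60.4% of the locus's interval bases, against 12.7% in the list. The widest was 2550 bp at chr14:99721301-99723850, a width reached by 79 intervals of the list. The next was 1850 bp at chr14:99698001-99699850, and stood apart from the others of this size in the lower part of the window. The rest of the 5 widest were 1500 bp (chr14:99736401-99737900) and 1400 bp (chr14:99724151-99725550 and chr14:99738051-99739450). At the other extreme, 12 intervals (30.0%) were 50 bp wide, close to the 30.7% of the list.

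The dense stretch at Klf5 did not end with the window. Its last interval, chr14:99739701-99740700, crossed the window's upper edge. Joining intervals less than 5 kb apart gave a cluster from 99694651 to 99754650 (60.0 kb) with 51 intervals, of which 17 lay outside the window, and 22700 bp of interval sequence. By interval bases this cluster ranked 9 of 32794 in the list and 1 of 1234 on chromosome 14. The gene limits of Klf5 in mm9 were not used here, so its intervals were not divided into gene and distal parts. In the RefSeq table its nearest protein-coding neighbours are Pibf1 and Klf12.

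At Klf2, the intervals were more numerous per length of window, and few were wide. The width was 150 bp at the median and 100 and 275 bp at the quartiles, and 1 of 39 intervals reached 1000 bp. That interval, 1500 bp at chr8:74858701-74860200, lay in the densest 5 kb of the window, from 74855000 to 74859999, where 6 intervals covered 59.0%. A second dense bin, from 74840000 to 74844999, lay near the middle of the window, with 7 intervals that covered 39.0%. It held intervals of 600 bp (chr8:74841251-74841850) and 550 bp (chr8:74842901-74843450). The other members of the 5 widest were 650 bp (chr8:74856501-74857150) and 600 bp (chr8:74816451-74817050). The longest gap, 6.80 kb, separated the 4 intervals at the lower edge from the rest, and no interval of the window lay above 74861950. Nearest protein-coding neighbours in the RefSeq table are Ap1m1 and Eps15l1, a clathrin adaptor subunit and an endocytic adaptor. Without mm9 gene limits, intervals of Klf2 were not told apart from those of its neighbours.

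Intervals at the loci were wider and closer together than in the list as a whole. The median width was 150 bp at Klf2, 250 bp at Klf4 and 150 bp at Klf5, against 100 bp for all 92549 intervals. Intervals of 500 bp or more were 6 of 39 at Klf2 (15.4%), 7 of 33 at Klf4 (21.2%) and 12 of 40 at Klf5 (30.0%), against 6.98% in the list. Of the narrowest class, 50 bp, Klf4 had 2 of 33 intervals (6.06%), Klf2 20.5% and Klf5 30.0%. Median gaps between neighbours were 500, 450 and 400 bp at Klf2, Klf4 and Klf5, against 1550 bp in the list. Gaps under 1 kb made up 29 of 38 (76.3%), 23 of 32 (71.9%) and 25 of 39 (64.1%), against 42.9% in the list. Widths and gaps come from the same calls, so they are not independent observations. Widths come in steps of 50 bp, and the lower quartile at Klf5 was 50 bp, as in the list. They were not compared with those of other windows rich in intervals. Windows rich in intervals tend to have short gaps, so the list is not a like comparison for gaps. Among windows with as many intervals or more, the median longest gap was 6250 bp for Klf2 and 7900 bp for Klf5. Some of these windows overlap the locus itself. The longest gaps at Klf2 and Klf5, 6800 and 8900 bp, were not shorter.

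**Figure D3:**
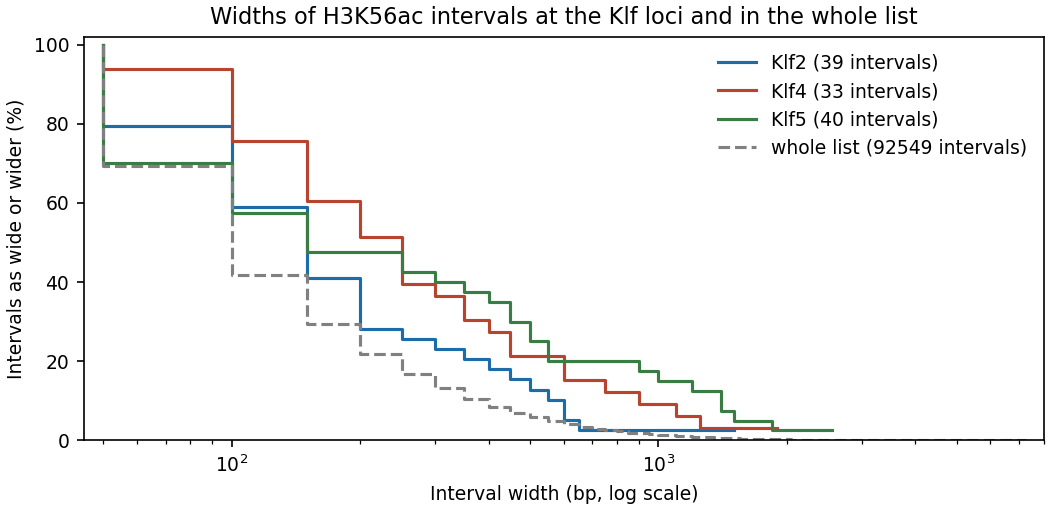
Share of intervals (y axis, %) that are at least as wide as the value on the x axis (bp, log scale), for the Klf2, Klf4 and Klf5 windows and for all 92549 intervals (dashed). All 3 loci lie above the list for widths of 100 to 500 bp, and at 1000 bp Klf5 (17.5%) and Klf4 (9.09%) lie above Klf2 (2.56%) and the list (1.56%).

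Each locus was set beside every window of its own length on its own chromosome, placed every 5 kb from the first to the last interval. Of 24378 windows of 70 kb on chromosome 14, 0.0451% (11) had as many covered bases as Klf5 or more, and all 11 overlapped the Klf5 window itself. No other 70 kb stretch of chromosome 14 in this placement thus held as many. In number of intervals, 0.103% of windows (25) reached the 40 of Klf5, of which 14 lay elsewhere, in 3 separate stretches. For Klf2, 0.141% of 25596 windows of 55 kb on chromosome 8 (36) had 39 intervals or more, and 31 of these lay elsewhere, in 6 stretches. In covered bases, 0.383% (98) reached Klf2, with 96 elsewhere in 14 stretches.

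Klf4 ranked lower by number of intervals than by covered bases. Of 30471 windows of 95 kb on chromosome 4, 1.77% (539) had 33 intervals or more, in 39 stretches elsewhere besides the locus, and 0.624% (190) had as many covered bases or more, in 13 stretches elsewhere. The median window held 0 intervals on all 3 chromosomes, and 60.2%, 50.7% and 63.0% of the windows held none on chromosomes 8, 4 and 14. The 90th percentile over windows was 7 intervals and 1200 bp on chromosome 8, 14 and 2400 bp on chromosome 4, and 6 and 900 bp on chromosome 14. Stretches without mappable reads were not removed. The windows overlap and are not replicates, so these shares describe ranks and are not p-values.

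**Figure D4:**
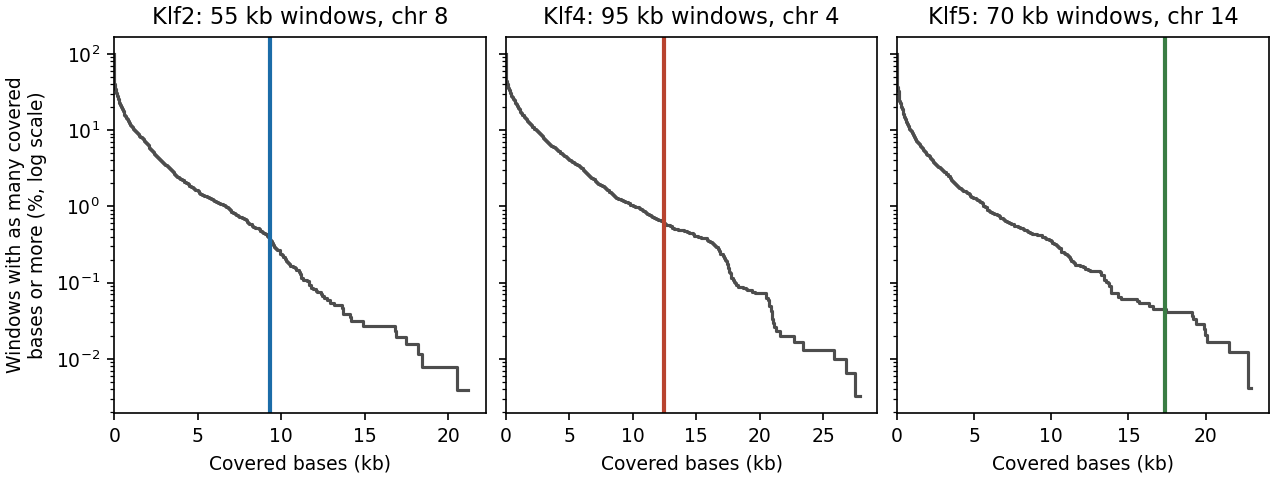
Percentage of same-size windows on the locus's chromosome (y axis, log scale) that hold at least the number of covered bases on the x axis (kb), for Klf2, Klf4 and Klf5; the coloured line is the locus. The line meets the curve at 0.383% for Klf2, 0.624% for Klf4 and 0.0451% for Klf5.

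Joined at less than 12500 bp, a distance in common use for linking enhancers, the intervals of Klf2 and of Klf5 each belonged to 1 cluster and those of Klf4 to 2. The Klf5 cluster ran from 99661301 to 99804050 with 68 intervals and 24.2 kb of interval sequence, and ranked 26 of 22232 by interval bases, the highest on chromosome 14. Joined at less than 25 kb it ranked 48 of 14585 and 2 on chromosome 14. The Klf2 cluster, from 74784901 to 74878950, had 64 intervals and 14.5 kb, of which 25 intervals lay outside the window, and ranked 90. The distal cluster of Klf4 ranked 157 with 11.1 kb in 29.1 kb, and its gene-side cluster ranked 2602 with 1400 bp. The order of Klf2 and distal Klf4 turned round when intervals were joined at less than 5 kb, where the largest Klf2 cluster ranked 474 and the distal Klf4 cluster 81 of 32794. The share of cluster length covered also depended on the joining distance. It was 38.0% for distal Klf4, 17.0% for Klf5 and 15.4% for Klf2 at 12500 bp, but 38.0%, 37.8% and 36.8% for their largest clusters at 5 kb.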

How the data were processed

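Per the submitters' processing notes, Bowtie and build mm9 were used. Not given in the sources used here are the caller, its threshold and the use of the input library. The list deposited by the authors has 3 columns (chromosome, start, end) and no counts or scores, so depth is unknown. Starts were read as 1-based with the end included (0 starts and 0 ends off a 50 bp grid). Covered bases were cut at window edges. Windows, and the Klf4 limits, came from a rule set by position; the members and comparisons were chosen with earlier results of these data known. All same-size windows, every 5 kb, were counted in place of random ones. Clusters joined intervals less than 12500 bp apart. The rule for naming was the 5 widest intervals and the longest gap of each locus; a tie at 600 bp was named in full, and the other intervals named at Klf4 and Klf5 were chosen after their values were seen, as were the promoter motifs and flanks. Counting code was tested on simulated data. Alternatives were merging at 500 bp, wider intervals only, other windows and other limits. Software was scipy 1.17.1, numpy 2.4.6, matplotlib 3.10.9 and pandas 2.3.3 under Python 3.11.15.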

Additional observations from a re-analysis of the deposited data

How the results depend on the processing

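Of 73 alternative values, 42 stayed close (counts, shares and widths within 1.5 times, ranks within an exact binomial 95% interval) and 31 moved. The binomial interval only set the label for ranks, since overlapping windows are not independent trials. Although 0 changed direction, counts, shares, widths and bases have no sign, so none could. The cluster ranks of Klf2 and distal Klf4 did turn round with the joining distance, as given above. With 1 library, no paired or left-out fit was possible. Merging intervals less than 500 bp apart left 21, 17 and 19 intervals at Klf2, Klf4 and Klf5, and median widths rose to 450 bp at Klf2 and 700 bp at Klf4. The share of windows with as many merged intervals or more was 0.215%, 4.07% and 0.217%, and with as many bases 0.293% for Klf2. Keeping intervals wider than 100 bp left 23 at Klf2 and 23 at Klf5, and gave Klf4 shares of 0.641% by number and 0.529% by bases. Windows of 0.5 times the length held 24, 6 and 18 intervals. Coverage at Klf4 was 8.32%, and this window leaves out most of the distal group and the whole gene-side group. Windows of 2 times the length held 63 at Klf2 and 65 at Klf5, and coverage at Klf4 was 6.61%. Among windows with an interval, shares by number were 0.353%, 3.58% and 0.278%, and by bases 0.962%, 1.26% and 0.122%. Over 19 autosomes, Klf4 had shares of 1.27% by number and 0.413% by bases, and Klf5 0.253% by number. Widening the Klf4 gene limits by 5 kb gave a coverage of 9.15%. Joining at 5 kb left 4600 bp in the largest Klf2 cluster. Depth is unknown, so a stretch with no interval may hold weak sites.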

Other observations

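The stretches on either side of the windows, each as long as the window, differed between the loci. Both sides of Klf4 were nearly empty: 5 intervals covered 0.316% of the lower side and 1 interval of 50 bp lay on the upper side. At Klf5 the lower side held 3 intervals over 200 bp, and the upper side 27 intervals over 6700 bp (9.57%), with the widest 1300 bp. Klf2 was the reverse: 23 intervals covered 8.63% of the lower side, from 74759999 to 74814999, and 5 intervals covered 0.909% of the upper side. Intervals outside the windows of Klf2 and Klf5 thus lay mostly on 1 side, and those outside the Klf4 window were few on both sides. These counts do not show an unbroken stretch. Joined at less than 5 kb, the cluster across the lower edge of Klf2 spanned 6.30 kb, with 2 intervals outside the window. Joined at less than 12500 bp, the clusters of Klf2 and Klf5 ran past both edges of their windows. These values come from 1 library, were looked at after the loci had been described, and carry no test.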
